A study of Mus musculus with 3 samples.

Results

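The loci of the T cell receptor were examined in mouse pro-B cells, as 3 windows of the mm9 assembly. They were chromosome 14, 53040001 to 54850000, for the alpha and delta chains, chromosome 6, 40840001 to 41510000, for the beta chain, and chromosome 13, 19265001 to 19450000, for the gamma chain. Their members were all 2665 bins of 1 kb in these windows, taken by position and not by read count. The windows themselves were set with earlier results of these data known. Of the 2665 bins, 1647 held a read in at least 1 library, among 2285014 such bins in the genome, and 1018 held none.

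All libraries came from cultured pro-B cells that lacked RAG2 (RAG2-/-) and were transformed with Abelson virus, of strain C57BL/7 as the labels spell it. Chromatin immunoprecipitation with sequencing was done with 1 library for each of 3 antibodies. The first antibody was made to bind histone H3 with a symmetrically dimethylated arginine 2 (H3R2me2s). The second was made to bind that mark together with trimethylation of lysine 4 (H3R2me2sK4me3, here the combined mark), and the last, a commercial one, binds H3K4me3. The libraries held 6923765, 7128852 and 13898471 reads in that order, and no input library was used, so local differences in how well reads can be placed were not removed. A transformed line stands in for pro-B cells here, and whether it was 1 clone is not given in the sources used. Genes that mark B, T or myeloid cells were not analysed, because no mm9 annotation was used.

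A T cell receptor locus is inherited as an array of V, J and, for beta and delta, D segments beside constant (C) genes, and T cells join the segments by V(D)J recombination. The RAG1 and RAG2 proteins cut the DNA, and a PHD finger of RAG2 binds H3K4me3. H3K4me3 is found at active promoters and at open J segments of antigen receptor loci. In cells without RAG2 these loci stay unrearranged. In pro-B cells the immunoglobulin heavy chain locus is the one that normally rearranges, while T cell receptor loci do so in thymocytes. The RefSeq table of GRCm38.p6 lists 136 V, 2 D, 62 J and 2 C segments for alpha and delta, with Trav1 first and Trac last, and Dad1 as the next gene. For beta it lists 35 V, 2 D, 14 J and 2 C segments from Trbv1 to Trbv31, with 18 other entries between them, among them the trypsin genes Prss1, Prss2 and Try4. For gamma it lists 7 V, 4 J and 4 C segments from Trgv7 to Trgc4, with Stard3nl as the next gene. That table was used for names and order alone. Its coordinates belong to another build, and no segment was assigned to a bin.

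The gamma locus carried strong H3K4me3 and combined mark in these pro-B cells, while the alpha and delta locus as a whole lay near genome background and the beta locus was raised over much of its length with few strong bins. Levels are mean reads per bin, over bins with a read, as multiples of a genome background taken over bins with no called bin within 5 kb. In the order H3R2me2s, combined mark and H3K4me3, which is kept below wherever 3 values follow each other, that background was 2.35, 1.86 and 2.98 reads. The gamma level was 2.45 (2.29 to 2.61), 5.23 (4.98 to 5.50) and 8.18 (7.93 to 8.44). The beta level was 1.71 (1.64 to 1.78), 1.74 (1.66 to 1.82) and 1.99 (1.92 to 2.06) in the same order. The alpha and delta level was 0.936 (0.896 to 0.977), 0.978 (0.932 to 1.03) and 0.988 (0.951 to 1.03). Intervals are exact 95% Poisson intervals. They cover counting error only, since reads amplified by PCR are not independent molecules and no antibody had a second library. For the same reason no p-value was computed between libraries or loci.

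The gamma locus also stood high among stretches of its own width. Over 13363 genome tiles of 185 kb in which 50% or more of the bins held a read, 91.7% were lower in H3R2me2s, 97.1% in the combined mark and 98.3% in H3K4me3. For beta 75.5%, 62.8% and 61.4% of 3701 tiles were lower, and for alpha and delta 31.3%, 24.1% and 19.9% of 1367 tiles. The gamma excess sat in its called bins. In gamma bins more than 5 kb from a called bin the levels were 1.06 (0.920 to 1.22), 1.21 (1.04 to 1.40) and 1.33 (1.19 to 1.49), so that the H3R2me2s interval held background and the other intervals lay above it. In the 200 kb on both sides the same kind of bin had 1.39 (1.31 to 1.48), 1.48 (1.39 to 1.58) and 1.31 (1.24 to 1.39). For H3R2me2s these gamma bins were thus lower than the flanks, with separate intervals. For the combined mark and for H3K4me3 the intervals overlapped.

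A bin was called at 15, 16 or 25 reads, which was 6.37, 8.60 and 8.39 times background. Genome-wide 1.23%, 1.45% and 2.45% of bins passed. In the gamma locus 15, 18 and 27 of 162 bins passed, or 9.26% (5.28 to 14.8), 11.1% (6.72 to 17.0) and 16.7% (11.3 to 23.3). In the beta locus 1, 3 and 9 of 557 bins passed in the same order, or 0.180% (0.00455 to 0.996), 0.539% (0.111 to 1.57) and 1.62% (0.741 to 3.05). In the alpha and delta locus 2, 2 and 5 of 928 bins passed, or 0.216% (0.0261 to 0.776), 0.216% and 0.539% (0.175 to 1.25). These are exact Clopper-Pearson intervals. Here and below they treat bins as independent, while called bins often lie side by side, so they can be too narrow. All 3 gamma shares lay above the genome-wide share with their whole interval, and all 3 alpha and delta shares lay below it. The beta intervals held the genome-wide share for the combined mark and H3K4me3 and lay below it for H3R2me2s. That beta count of 1 was 3 with reads not moved, 6 with reads moved 150 bp and 5 with bins moved by 500 bp.

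**Figure D1:**
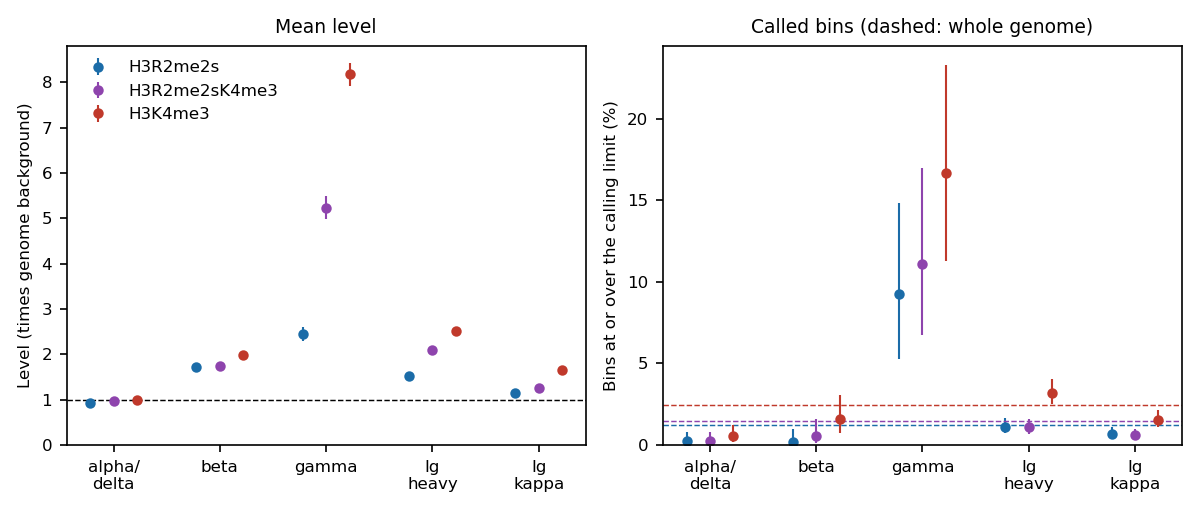
Left, mean level of each locus (times genome background, vertical axis) in the 3 libraries with exact 95% Poisson intervals, and right, the percentage of bins called with exact Clopper-Pearson intervals. Horizontal positions are the 3 T cell receptor loci and windows holding the immunoglobulin (Ig) heavy and kappa loci, dashed lines are background on the left and the genome-wide share of each library on the right, and gamma lies highest in both panels, with an H3K4me3 level of 8.18 and 16.7% of bins called.

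Together 44 bins passed in any library, or 2.67% of the 1647 (1.95 to 3.57), beside 2.55% of bins genome-wide, a share that lies within the interval. By locus 29 of them were in gamma, 10 in beta and 5 in alpha and delta. Joined across gaps of at most 1 kb, they formed 6 regions in gamma, 7 in beta and 2 in alpha and delta. All 3 marks were called in 14 of the 44 bins, H3K4me3 with the combined mark in 9, H3R2me2s with H3K4me3 in 1, H3K4me3 alone in 17 and H3R2me2s alone in 3. No bin was called for the combined mark without H3K4me3, that is 23 of 23 (85.2% to 100%), beside 99.1% genome-wide. Of the called H3R2me2s bins, 15 of 18 were also called for H3K4me3, or 83.3% (58.6 to 96.4), beside 93.0% genome-wide. Of the called H3K4me3 bins, 15 of 41 were also called for H3R2me2s, or 36.6% (22.1 to 53.1), beside 46.8% genome-wide, and 23 of 41 for the combined mark, or 56.1% (39.7 to 71.5), beside 58.6%. Both genome-wide shares lay within these intervals. By locus, H3R2me2s was called in 13 of 27 H3K4me3 bins in gamma, 2 of 5 in alpha and delta and 0 of 9 in beta. The beta share, 0% (0 to 33.6), lay below the genome-wide 46.8% with its whole interval, although some of these 9 bins are neighbours. H3R2me2s calls in beta changed with the read shift, as given above.

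The gamma locus held 4 strong regions, each called for all 3 marks, spread from 1 end of the window to the other. In the order of position they covered 19271001 to 19283000, 19297001 to 19305000, 19395001 to 19404000 and 19448001 to 19452000 on chromosome 13. The last crosses the end of the window, and its final 2 kb lie outside. H3K4me3 summits in 100 bp bins lay 26.1, 100.3 and 46.8 kb apart from each to the next. In all 4 regions the same 1 kb bin was the highest in all 3 libraries. The summits of the combined mark lay within 100 bp of the H3K4me3 summit in each of the 4. Those of H3R2me2s lay within 200 bp in 3 of them and 800 bp away in the region at the end of the window, where its highest 100 bp bin held 9 reads.

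**Figure D2:**
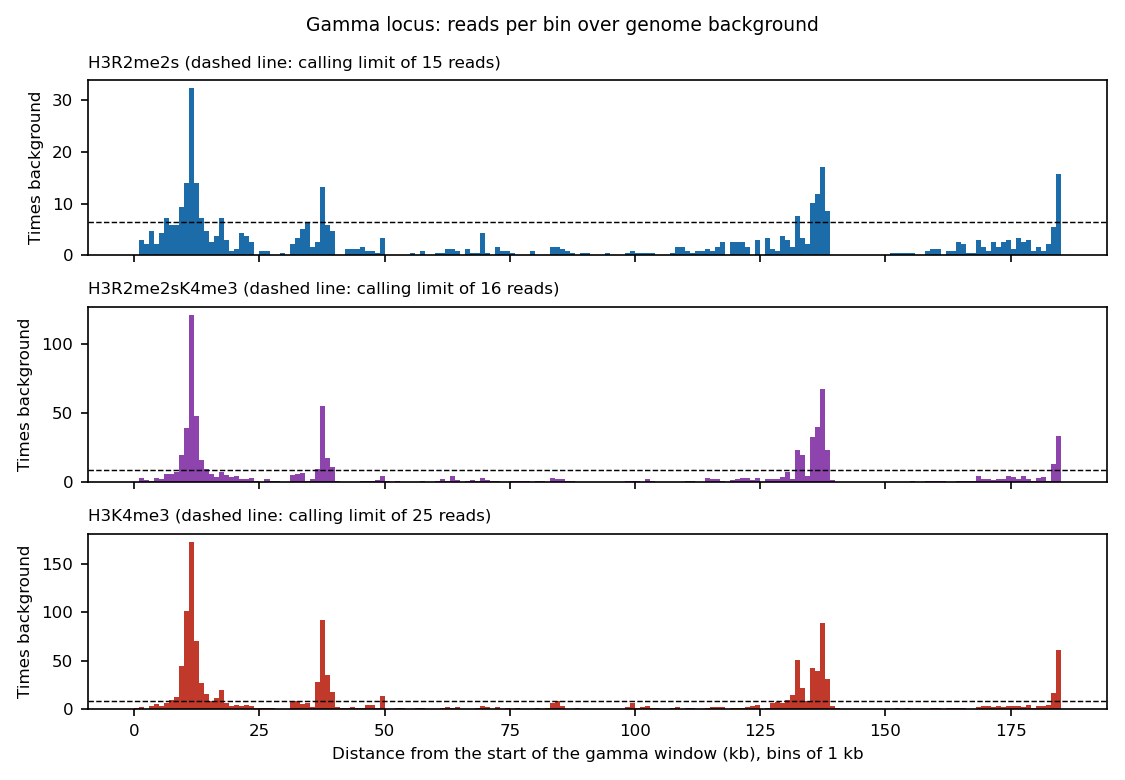
Level of each 1 kb bin (times genome background, vertical axis, a separate scale per panel) along the gamma window (distance from its start in kb) for the 3 libraries, with the calling limit dashed. The 4 strong regions start 6, 32, 130 and 183 kb from the window start, and the highest bin reaches 32.3 times background in H3R2me2s, 121 in the combined mark and 172 in H3K4me3.

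The first gamma region, 12 kb wide, held the most reads in each library. It held 269, 540 and 1483 reads, which was 9.52 (8.42 to 10.7), 24.2 (22.2 to 26.3) and 41.5 (39.4 to 43.7) times background. Its highest bin, 19276001 to 19277000, had 76, 225 and 513 reads, or 32.3, 121 and 172 times background. Among all called bins of the genome that bin stood above 91.7%, 96.3% and 99.0% in the same order. The signal fell away from that bin on both sides. Bin 19275001 held 33, 73 and 302 reads, and bin 19274001 held 22, 37 and 132. Bin 19277001 held 33, 89 and 208 reads, and bin 19278001 held 17, 30 and 80.

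The outer bins of the same region were weaker and fewer marks passed there. Bin 19279001 had 11, 18 and 47 reads and was called for the combined mark and H3K4me3. Bins 19272001 (14, 11 and 29 reads), 19273001 (14, 14 and 36) and 19281001 (9, 7 and 34) were called for H3K4me3 alone. Bin 19282001 had 17, 14 and 59 reads and was called for H3R2me2s and H3K4me3, the only bin of the 3 loci with that pair. Bin 19271001, at the outer edge, had 17, 11 and 19 reads and was called for H3R2me2s alone.

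The next region, 8 kb wide, held 101, 203 and 582 reads, or 5.36 (4.37 to 6.52), 13.6 (11.8 to 15.6) and 24.4 (22.5 to 26.5) times background. Its highest bin, 19302001, had 31, 103 and 275 reads. Bins 19301001 (6, 18 and 82 reads), 19303001 (14, 33 and 106) and 19304001 (11, 20 and 51) beside it were called for the combined mark and H3K4me3 but not for H3R2me2s. Away from that core bin 19297001 had 8, 11 and 26 reads and was called for H3K4me3 alone. Bin 19299001 had 15, 1 and 19 reads and was called for H3R2me2s alone, at its limit. The 15 reads had 14 distinct starts.

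The region from 19395001 to 19404000 had 2 parts with a bin below the limits between them. It held 154, 415 and 910 reads in all, or 7.27 (6.16 to 8.51), 24.8 (22.4 to 27.3) and 33.9 (31.8 to 36.2) times background. In the first part bin 19397001 was highest with 18, 44 and 150 reads, beside 19398001 (8, 37 and 65), 19396001 (4, 5 and 42) and 19395001 (7, 14 and 28). The second part was called for all 3 marks in each of its bins, with 24, 61 and 125 reads in 19400001, 28, 75 and 118 in 19401001, 40, 126 and 265 in 19402001, and 20, 44 and 93 in 19403001. The combined mark over H3K4me3, with reads scaled to the mapped reads of each library (CPM), was 0.684 (0.539 to 0.862) over the first 4 kb and 0.993 (0.862 to 1.14) over the last 4 kb. The first interval ended at 0.86199 and the other began at 0.86216, so they were barely apart. This pair was singled out after its values were seen. H3R2me2s over H3K4me3 was 0.261 (0.180 to 0.368) and 0.374 (0.303 to 0.458), with overlapping intervals. The stretch from 19406001 to 19416000 just beyond held no read in any library, so signal there could not be measured.

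The region at the end of the window held 84, 163 and 442 reads over 4 kb, or 8.92 (7.11 to 11.04), 21.9 (18.7 to 25.5) and 37.1 (33.7 to 40.7) times background. Inside the window bin 19449001 had 37, 62 and 181 reads and was called for all 3 marks. Bin 19448001 had 13, 25 and 49 reads and was called for the combined mark and H3K4me3. Outside the window the next strong region lay 36 kb further, at 19486001 to 19490000, with 107, 239 and 613 reads. No bin was called in the 200 kb below the window. The remaining gamma calls were 2 single bins of H3K4me3, 19314001 with 8, 8 and 39 reads and 19349001 with 4, 5 and 26.

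**Figure D3:**
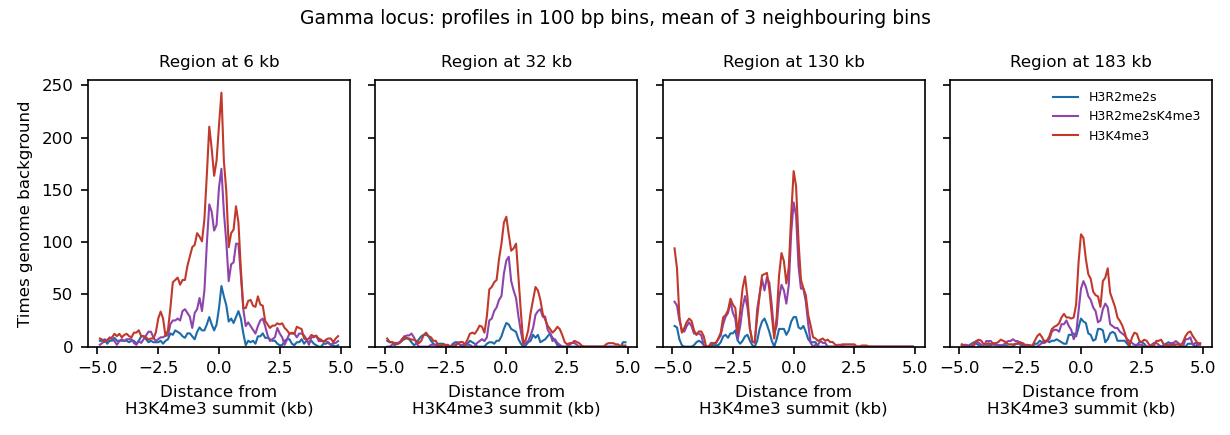
Levels (times genome background, vertical axis) in 100 bp bins, averaged over 3 neighbouring bins, within 5 kb of the H3K4me3 summit of the 4 strong gamma regions, named by their start in kb from the window start. The averaged curves of all 3 libraries are highest within 100 bp of the H3K4me3 summit in each of the 4 regions, although the highest single H3R2me2s bin of the region at 183 kb lies 800 bp away.

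Reads of the gamma locus were concentrated in these bins. Called bins held 45.8%, 71.0% and 80.1% of its reads, beside 14.8%, 33.7% and 45.1% genome-wide. In alpha and delta the shares were 2.20%, 3.55% and 10.7%, and in beta 0.846%, 3.27% and 12.9%, below the genome-wide shares in all 3 libraries.

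The alpha and delta locus had 2 called regions, near opposite ends of the window. The first, 53070001 to 53072000, held 20, 36 and 126 reads, or 4.25 (2.59 to 6.56), 9.67 (6.77 to 13.4) and 21.2 (17.6 to 25.2) times background. Bin 53071001 had 15, 21 and 74 reads and was called for all 3 marks, and bin 53070001 had 5, 15 and 52 and was called for H3K4me3 alone. The second, 54846001 to 54849000, began 1806 kb from the window start. It held 39, 58 and 166 reads, or 5.52 (3.93 to 7.55), 10.4 (7.89 to 13.4) and 18.6 (15.9 to 21.6) times background. Bin 54847001 had 30, 39 and 92 reads and was called for all 3 marks. Its neighbours 54846001 (5, 6 and 35 reads) and 54848001 (4, 13 and 39) were called for H3K4me3 alone.

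Strong regions lay outside this window on both sides. Above it a bin 2 kb from the edge, 54852001, had 12, 11 and 57 reads. The region 54871001 to 54876000, 21 kb from the edge, held 156, 355 and 767 reads, or 13.3, 38.1 and 51.5 times background, and so exceeded both regions inside. Below the window 4 regions between 114 and 171 kb from the edge had H3K4me3 levels of 28.2 to 49.5 times background.

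Much of the alpha and delta locus could not be measured. Of its 1810 bins 882 held no read in any library, or 48.7%, beside 16.9% in beta and 12.4% in gamma. The longest empty stretches were 75 kb at 53766001 to 53841000 and 72 kb at 53531001 to 53603000. In windows of 50 kb the level was lower where fewer bins held reads. The 25 windows in which less than 80% of bins held a read had levels of 0.466 (0.424 to 0.512), 0.506 (0.456 to 0.560) and 0.498 (0.459 to 0.540). In the other 12 windows, 560 kb in all, they were 1.29 (1.22 to 1.35), 1.33 (1.26 to 1.41) and 1.35 (1.30 to 1.41). Genome tiles of 50 kb that met the same share had 1.35, 1.77 and 2.17 over all bins, and 1.04, 1.04 and 1.04 away from called bins. The values of the 12 windows are over all bins and include the called bins of the locus. The whole-locus level near 1 thus averages stretches of low and of high coverage, and the part of read placement in it was not tested.

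At the upper end, where most bins held reads, levels were higher toward the end of the window. From 54390001 to 54640000 the 5 windows had levels of 0.832 to 1.20 for H3R2me2s, 0.853 to 1.14 for the combined mark and 0.792 to 0.939 for H3K4me3. From 54640001 to 54840000 the next 4 had 1.46 to 1.71, 1.11 to 1.74 and 1.37 to 1.67. The ranges of both stretches overlapped for the combined mark alone, and no bin was called in any of these windows. The final 10 kb, with the second region, had 2.97 (2.32 to 3.76), 5.27 (4.27 to 6.42) and 6.88 (5.97 to 7.89).

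**Figure D4:**
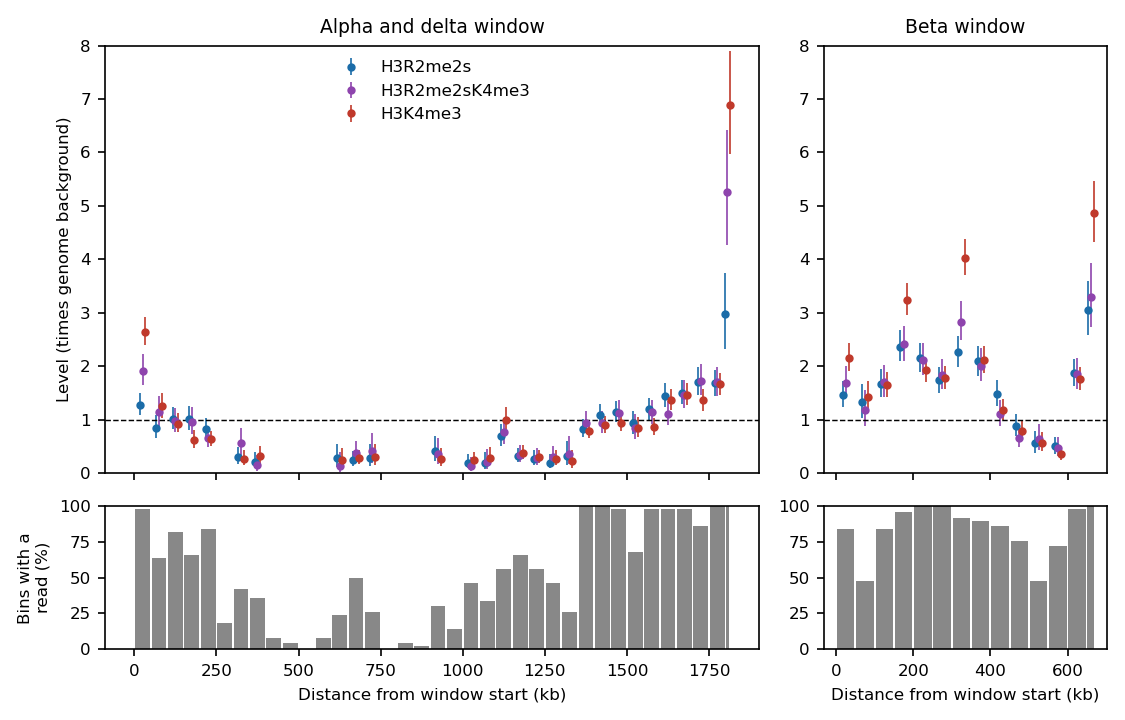
Top, level (times genome background) of 50 kb windows along the alpha and delta window and the beta window, with exact 95% Poisson intervals, for windows with 10 or more bins holding a read, and bottom, the percentage of bins in each window with a read in any library. The horizontal axis is the distance from the window start in kb, the last window of each locus is shorter, and the middle of alpha and delta has few bins with a read and levels under 1.1 in all 3 libraries.

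The beta locus was raised broadly and nearly alike in the 3 libraries. In its 496 bins more than 5 kb from a called bin the levels were 1.59 (1.52 to 1.66), 1.55 (1.47 to 1.63) and 1.56 (1.49 to 1.62). Of 3701 genome tiles of 670 kb, taken over such bins, 91.4%, 92.2% and 93.0% were lower. In the 1 Mb on both sides the same kind of bin had 0.989 (0.958 to 1.02), 1.00 (0.967 to 1.04) and 0.875 (0.849 to 0.901), so the rise was not shared by the wider neighbourhood. In the nearest 200 kb on both sides it was 1.26, 1.29 and 1.06. Since the H3R2me2s, combined-mark and H3K4me3 libraries rose together and no input was used, a mark and a local excess of reads cannot be told apart here.

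This rise was uneven along beta. Between 150 and 400 kb from the start bins away from calls had 1.74 to 2.27, 1.85 to 2.27 and 1.79 to 2.56 in windows of 50 kb. It fell to 0.507, 0.478 and 0.354 in the window from 41390001 to 41440000, where 14 of 50 bins held no read. It was 1.88, 1.85 and 1.77 in the next window, and 3.06 (2.58 to 3.60), 3.30 (2.75 to 3.94) and 4.87 (4.32 to 5.46) in the final 20 kb, over all bins and with 3 called ones among them.

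By H3K4me3 the highest called beta bin, 41166001, stood above 56.1% of the called bins of the genome. The widest region, 41166001 to 41169000, held 36, 56 and 206 reads, or 5.10 (3.57 to 7.06), 10.0 (7.58 to 13.02) and 23.1 (20.01 to 26.4) times background. Its bins had 14, 21 and 79 reads, then 8, 15 and 64, then 14, 20 and 63. All were called for H3K4me3 and none for H3R2me2s, which stood 1 read under its limit in the outer bins, and the combined mark passed in those outer bins. At the upper end the region 41504001 to 41506000 held 28, 31 and 97 reads, or 5.95 (3.95 to 8.59), 8.33 (5.66 to 11.8) and 16.3 (13.2 to 19.9) times background. Bin 41504001 had 14, 13 and 59 reads and bin 41505001 had 14, 18 and 38, and only the latter was called for the combined mark.

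The other beta calls were single bins. H3K4me3 alone passed in 40841001 (12, 12 and 26 reads), 40848001 (8, 7 and 26), 41026001 (9, 11 and 42) and 41153001 (5, 3 and 30). Bin 41499001 was called for H3R2me2s alone, with 19, 10 and 18 reads, of which the H3R2me2s reads had 18 distinct starts. Its H3R2me2s over H3K4me3 ratio in CPM was 2.12 (1.05 to 4.28), a description only, since the bin was listed through H3R2me2s alone. Scaled to genome background the ratio was 1.34 (0.663 to 2.70), and with 1 read per position and strand it was 1.99 (0.975 to 4.05), so that both intervals held 1. The bin lay 5 kb below the region at 41504001. In beta no bin was called for all 3 marks.

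Several bins of each locus lay close to the limits. The weakest called bins had 15, 18 and 26 reads. The highest uncalled bins had 14 reads of H3R2me2s in beta and gamma and 12 in alpha and delta (53168001 and 54762001). For the combined mark they had 15 reads in 53070001 of alpha and delta, 15 in 41167001 of beta and 14 in gamma. For H3K4me3 they had 23 reads in 53069001 of alpha and delta and 24 in beta (41025001, 41050001 and 41152001) and gamma (19280001 and 19399001). At 8 times the genome mean the limits were 25, 25 and 49 reads. Gamma then kept 7, 15 and 18 calls, while beta kept 0, 0 and 4 and alpha and delta 1, 1 and 3.

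Bins at 2 times background or more show this difference in shape. In beta 37.5%, 39.1% and 39.5% of bins reached that level, and in gamma 35.8%, 44.4% and 46.9%, beside 19.1%, 20.4% and 19% genome-wide. In alpha and delta 13.8%, 15.5% and 11.3% did. These shares include the called bins, which were 9.26%, 11.1% and 16.7% of gamma bins but 0.180%, 0.539% and 1.62% of beta bins. Bins raised to that level but under the calling limit thus made up a larger share of beta than of gamma in all 3 libraries.

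Ratios between libraries were pooled over the regions of each locus, including regions listed through 1 mark alone, whose ratios follow in part from that choice. Pooled over its 6 regions, gamma had an H3R2me2s over H3K4me3 ratio of 0.357 (0.328 to 0.389), beta 0.528 (0.427 to 0.648) over 7 and alpha and delta 0.406 (0.301 to 0.538) over 2. The genome median was 0.412. The combined mark over H3K4me3 was 0.747 (0.701 to 0.796) in gamma, 0.570 (0.465 to 0.694) in beta and 0.628 (0.492 to 0.794) in alpha and delta, beside a genome median of 0.715. H3R2me2s over the combined mark was 0.479 (0.434 to 0.527), 0.927 (0.716 to 1.20) and 0.646 (0.459 to 0.904), beside 0.511. Pooled values weigh regions by their reads, while the genome medians are over single regions. Single regions differed from the pooled gamma value. Of the 15 regions, 9 lay below the genome median for H3R2me2s over H3K4me3 and 11 for the combined mark over H3K4me3. The medians over the 15 were 0.381 and 0.623. For H3R2me2s over the combined mark 1 of the 15 regions, 19395001 to 19404000 of gamma, lay below the genome median. The median over the 15 was 0.824, the value of the single bin 19349001, with 4 and 5 reads. The genome median took only regions with at least 30 reads in the 2 libraries of the ratio. Several of the 15 held fewer, so the sets of regions are unlike. The gamma regions starting at 19271001 and 19297001 had 0.513 and 0.512, next to the genome median of 0.511. The pooled gamma and beta intervals did not overlap for any of the 3 ratios. With 1 read per position and strand they did for H3R2me2s over H3K4me3, at 0.346 to 0.413 in gamma and 0.396 to 0.610 in beta. Pooled levels were 4.97, 6.98 and 14.9 times background in beta regions and 7.52, 20.5 and 33.4 in gamma regions. Net of genome background, H3R2me2s per H3K4me3 was 0.201 in gamma, 0.285 in beta and 0.216 in alpha and delta.

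**Figure D5:**
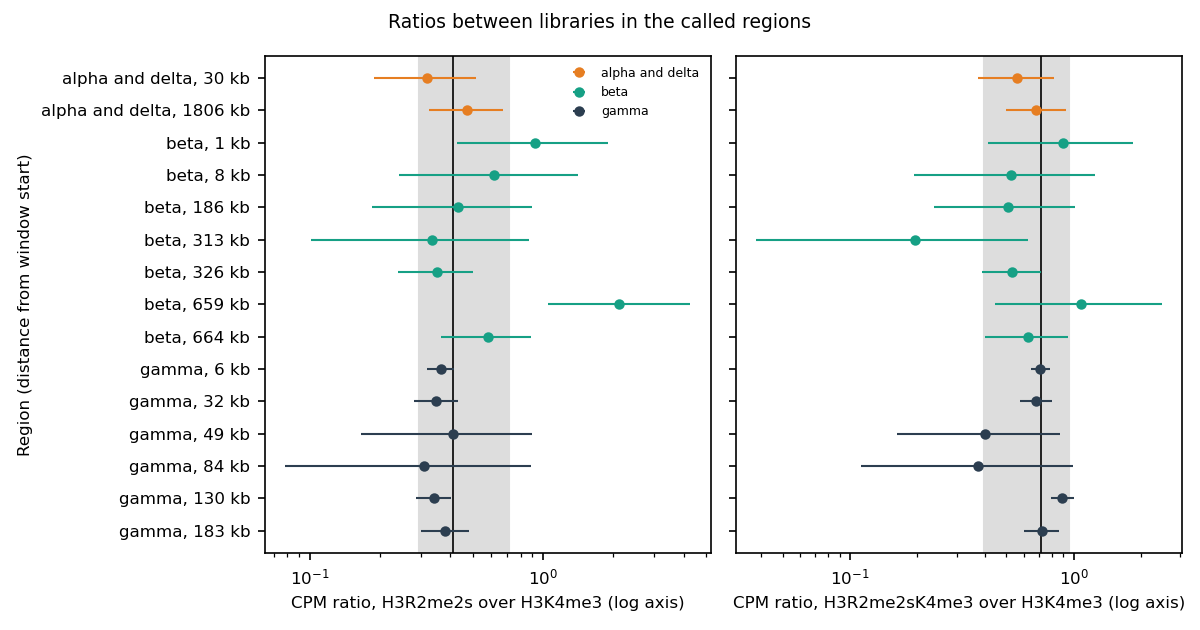
CPM ratios (log axis) of H3R2me2s and of the combined mark over H3K4me3 in the 15 called regions, named by locus and distance from the window start, with exact 95% binomial intervals. The line is the genome median (0.412 left, 0.715 right), the grey band holds the middle 80% of genome regions, and in the left panel the beta regions at 1 kb (0.926) and 659 kb (2.12) lie to the right of the band.

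Among the 4 strong gamma regions, that from 19395001 to 19404000 had the highest ratio of the combined mark to H3K4me3. This ratio was 0.889 (0.790 to 1.00), above 80.4% of regions, and H3R2me2s over the combined mark was 0.382 (0.316 to 0.461), above 6.81%. The 12 kb gamma region had 0.710 (0.642 to 0.784) and 0.513 (0.441 to 0.595), both at the middle of the genome's regions. For the combined mark over H3K4me3 the regions starting at 19297001 and 19448001 had 0.680 (0.577 to 0.799) and 0.719 (0.597 to 0.862). Both intervals overlapped that of the region with the highest ratio, while that of the 12 kb region did not. For H3R2me2s over the combined mark its interval overlapped those of all the other strong regions.

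The immunoglobulin heavy and kappa loci were taken as windows of 2750 and 3180 kb that hold these loci in mm9. They are antigen receptor loci of the B lineage. The heavy chain window had levels of 1.52 (1.49 to 1.56), 2.10 (2.06 to 2.15) and 2.53 (2.49 to 2.56), and the kappa window 1.15 (1.12 to 1.18), 1.26 (1.23 to 1.30) and 1.66 (1.63 to 1.69). Their shares of H3K4me3 bins called were 3.21% (2.53 to 4.02) and 1.56% (1.11 to 2.12), beside 16.7% (11.3 to 23.3) in gamma. Gamma is the shortest of these windows, and the average of a longer window takes in more bins outside regions. By its highest bin the heavy chain window was stronger, with 313, 688 and 964 reads beside 76, 225 and 513 in gamma. The kappa window reached 23, 49 and 168 reads, below gamma in all 3 libraries and above the highest beta bins, which had 19, 21 and 79.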

How the data were processed

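Read files of 3 libraries, 1 per antibody, were used. The mm9 build is named in the labels, per the submitters' processing notes. Which aligner was run, how it treated mismatches and repeats, and whether repeated reads were removed are not given in the sources used here. In the files the authors deposited every line is 1 mapped read, 39 bases long, and read counts are raw, and the deposited columns used were positions and strands. Reads were shifted by 75 bp toward their 3-prime side and then counted per 1 kb bin with Python 3.11.15, numpy 2.4.6, scipy 1.17.1 and pandas 2.3.3. The limits are 4 times the genome mean, raised where needed until a Poisson upper tail was below 1e-06. Percentiles of ratios used genome regions that held at least 30 reads in the 2 libraries of the ratio. The code was tested on simulated bins. Every bin at or over a limit was named, with the highest bins under it. The windows, limits and lists were chosen with earlier results of these data known. The windows holding the immunoglobulin loci were set from knowledge of mm9, not from an annotation.

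Alternatives were other read shifts, 1 read per position, other backgrounds, other limits, moved bins and equal depth. Depth was 6923765 to 13898471 reads, of which 2.64% to 6.20% repeated a position and strand. No sequence was printed, because no mm9 genome was used.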

Additional observations from a re-analysis of the deposited data

How the results depend on the processing

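Over 15 settings 576 values were recomputed. Of these 478 stayed within their counting interval, or within 1.5 times for counts, 96 moved more and 2 crossed background. The 2 settings on covered windows and on the region at the window edge were chosen after seeing the data. Leaving out that region moved no pooled ratio, level or count of gamma beyond these bounds.

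With the genome mean as background the alpha and delta levels were 0.727, 0.584 and 0.484 (H3R2me2s, combined mark, H3K4me3, as below), the beta levels 1.33, 1.04 and 0.975, so that beta H3K4me3 fell below 1, and the gamma levels 1.90, 3.12 and 4.01. Against the flanks of 200 kb they were 0.640, 0.696 and 0.672, then 1.36, 1.35 and 1.88, then 1.76, 3.53 and 6.24. Without called bins and the 5 kb around them alpha and delta had 0.896 and 0.851 for the combined mark and H3K4me3, beta 1.59, 1.55 and 1.56, and gamma 1.06, 1.21 and 1.33. With empty bins included alpha and delta fell to 0.563, 0.588 and 0.594. In windows where 80% or more of bins held a read it had 1.29, 1.33 and 1.35, so that H3R2me2s crossed 1, and beta had 1.97, 2.03 and 2.34. With 1 read per position and strand gamma H3K4me3 went to 7.46 and its regions from 33.4 to 30.01 times background. Against the background of its own locus, H3K4me3 in alpha and delta regions was 23.0, beta regions had 3.13, 4.52 and 9.60, and gamma regions 16.9 and 25.03 for the combined mark and H3K4me3.

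Counts in beta and alpha and delta rest on few reads. H3R2me2s calls in beta went from 1 to 3 with reads not moved, 6 with reads moved 150 bp and 5 with bins moved by 500 bp. Those in alpha and delta went from 2 to 1 with reads not moved and with 1 read per position. At 8 times the mean, alpha and delta had 1, 1 and 3, beta 0, 0 and 4, and gamma 7, 15 and 18. At 2 times the mean beta had 15 of H3K4me3. At equal depth no count moved by more than 1.5 times.

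Scaled to background in place of all reads, H3R2me2s over H3K4me3 was 0.256 in alpha and delta, 0.333 in beta and 0.225 in gamma. The combined mark over H3K4me3 was 0.613 in gamma, and H3R2me2s over the combined mark was 0.711 in beta and 0.367 in gamma. No paired analysis was possible because the series has a single library for every antibody. For the same reason leaving out a replicate was not possible.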
